A study of Mus musculus with 6 samples.

Results

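The proteasome genes of mouse testis were taken by symbol: every gene whose symbol starts with Psma, Psmb, Psmc, Psmd, Psme, Psmf or Psmg followed by a digit, with the 4 symbols that end in -ps or -ps2 left out. The rule found 50 of the 36652 genes in the deposited table. Of these, 49 encode a subunit, activator, inhibitor or assembly factor of the proteasome. The remaining gene, Psmc3ip, matched by symbol alone, since its product is a meiotic recombination protein named for its binding to an ATPase subunit; it is kept in the counts and described apart. The study sequenced testis RNA of mice aged 8 weeks, 3 WT libraries and 3 Ccdc117ko libraries. The labels name only genotype and age, with no strain and no description of the allele. Nor do they tell whether each replicate is its own mouse, and the p-values therefore reflect variation among libraries that may be technical.

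The proteasome is the protease that breaks down ubiquitin-tagged proteins in the cytosol and nucleus. Its 20S core is a barrel of alpha rings, which gate the entrance, around beta rings, which hold the catalytic sites. The 19S regulatory particle caps the core: its base carries a ring of ATPases that unfold the substrate, and its lid removes the ubiquitin chain. Dedicated chaperones assemble each particle. In testis, germ cells replace the alpha subunit Psma7 with the meiotic Psma8 in part of their proteasomes, and the activator Psme4 (PA200) serves histone turnover in spermatids.

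The recovered reads came to 35791616 to 43461692 per library. The total over Ccdc117 differed by a log2 value of -0.03 between the genotypes (SE 0.05, limma adjusted p = 0.714), and this total leaves the genotype labels unchecked; directions refer to the libraries as labelled. Defining markers of spermatogonia, spermatocytes, spermatids, Sertoli cells and Leydig cells were all detected, with none at 0. Across the 22878 genes whose mean reached 10 normalized counts, limma called 1911 higher and 1887 lower in Ccdc117ko at an adjusted p under 0.05, and 1878 higher and 913 lower after correcting for the length and GC content of transcripts. This count was lower when 1 library was left out, at 1866 without WT replicate 3, 2679 without WT replicate 2, 2839 without Ccdc117ko replicate 1, 1714 without Ccdc117ko replicate 2 and 2511 without Ccdc117ko replicate 3, and it was 4021 without WT replicate 1.

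The stretches upstream of RefSeq transcript starts of 5 called genes of the list, Psmc3ip among them, are shown here. They set the letters of the promoters beside the changes described further on. Sequences are from RefSeq on GRCm38.p6, given 5′ to 3′ on the strand of the gene, with coordinates of the printed stretch. Capitals mark matches on either strand to 4 short motifs: CCAAT (the CCAAT box), CCGGAAG (the core bound by ETS factors), TGACNNNGC (the antioxidant response element core, which Nfe2l1 and its relatives bind) and the 10-base site of nuclear respiratory factor 1. A match on the opposite strand appears as its reverse complement. Each stretch ends at the base before the annotated transcript start, except those of Psma6 and Psmc3ip, which run a few bases into the transcript to include a match. The RefSeq starts used for Psmd9, Psma6 and Psmd1 lie far enough downstream of the gene start that their stretches fall within the gene spans given further on. Those of Psmd10 and Psmc3ip lie slightly downstream, so only the last bases of their stretches fall within the gene span.
Psmd10, chrX:140956712-140956811, minus strand: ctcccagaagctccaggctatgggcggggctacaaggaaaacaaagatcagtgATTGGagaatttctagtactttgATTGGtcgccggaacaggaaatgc
Psmd9, chr5:123228090-123228189, plus strand: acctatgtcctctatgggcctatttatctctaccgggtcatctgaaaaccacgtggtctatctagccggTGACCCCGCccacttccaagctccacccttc
Psma6, chr12:55398685-55398849, plus strand: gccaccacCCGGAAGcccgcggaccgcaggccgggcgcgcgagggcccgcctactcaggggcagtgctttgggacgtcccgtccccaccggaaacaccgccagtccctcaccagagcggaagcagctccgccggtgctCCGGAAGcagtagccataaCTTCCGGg
Psmc3ip, chr11:101095430-101095535, minus strand: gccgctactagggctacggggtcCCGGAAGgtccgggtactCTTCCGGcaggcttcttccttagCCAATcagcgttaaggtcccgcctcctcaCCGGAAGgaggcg
Psmd1, chr1:86064519-86064618, plus strand: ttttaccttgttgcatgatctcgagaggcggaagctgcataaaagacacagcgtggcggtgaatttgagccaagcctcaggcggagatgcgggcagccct
The 5 stretches hold different motifs. That of Psmd10 has 2 CCAAT matches, both on the opposite strand, and that of Psmd9 has 1 TGACNNNGC match. Those of Psma6 and Psmc3ip have 3 CCGGAAG matches each, and that of Psmc3ip also has 1 CCAAT match. Psma6 has another RefSeq window, at its gene start (55384222), which is not printed. That window has CCAAT matches at -136 and -29 from the start and no CCGGAAG match. The printed stretch of Psmd1 has no match to any of the 4, nor do the full windows of Psmf1 and Psmb10.

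RefSeq windows from 250 bases before to 50 bases after the start were at hand for 42 of the 50 genes. The ETS core stood in the windows of 15 of these 42 genes (35.7%), against 9.93% of 27025 genes with a window of the same length. CCAAT was found in 35.7% of the proteasome genes and 41.1% of all genes. TGACNNNGC was found in 6 of 42 (14.3%) and 14.0% of all genes, and the site of nuclear respiratory factor 1 in 2 of 42 (4.76%) and 1.07% of all genes. These are matches of letters, which overlap where motifs share bases, and no binding was measured. Among tested genes, the 15 with an ETS core had a median log2 difference of 0.06, with 2 called higher and none lower, and the 26 without one had a median of 0.02, with 4 called higher and 1 lower.

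Transcripts of the proteasome genes spanned a wide range of levels, and members of the same ring did not have equal levels. All levels that compare genes are normalized counts per kilobase of the longest annotated transcript, averaged over the 6 libraries. The ATPase Psmc3 had the highest level, 14071 per kilobase, and the other ATPases went down to 905 for Psmc6. In the alpha ring, Psma6 stood at 12008 per kilobase, while Psma4, the next alpha subunit, had 2226 and Psma2, the lowest, 436. Psmd8 led the lid with 6641 per kilobase, and Psmd14, the deubiquitinase of the lid, had 816. Psmd2, which docks ubiquitin-bearing substrates at the base, had 5399. Of the constitutive catalytic subunits, Psmb6 had 5149 per kilobase, Psmb5 2648 and Psmb7 1490; Psmb4 led the beta subunits without a catalytic site with 3319.

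The chaperones of the 19S particle within the symbol rule were low beside its subunits. They had 145 (Psmd5), 379 (Psmd10) and 579 (Psmd9) normalized counts per kilobase, against a median of 1973 over the 17 subunits of the 19S particle. Among the 20S assembly chaperones within the rule the level went from 79.5 for Psmg3 to 1135 for Psmg2. The median over the 14 constitutive core subunits was 1412. Psmg2 lay above Psma1, Psma2, Psma3, Psma7 and Psmb3. With the longest protein-coding transcript, Psmb3 had 1588 per kilobase and lay above Psmg2. The inhibitor Psmf1 had 4883 per kilobase and the activators Psme4 and Psme3 had 2503 and 2129. The level depends on the transcript model: for 6 genes the longest transcript exceeds the longest protein-coding one by over 1.5 times, and with the coding one Psmc2 moved from 4098 to 7956 and Psmb7 from 1490 to 3660 per kilobase. For 7 genes (Psma3, Psma4, Psma5, Psmb5, Psmd2, Psme2 and Psme2b) more than 20% of the 50-base words of the transcript also occur in another gene, so their counts could be split between copies and are uncertain.

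**Figure D1:**
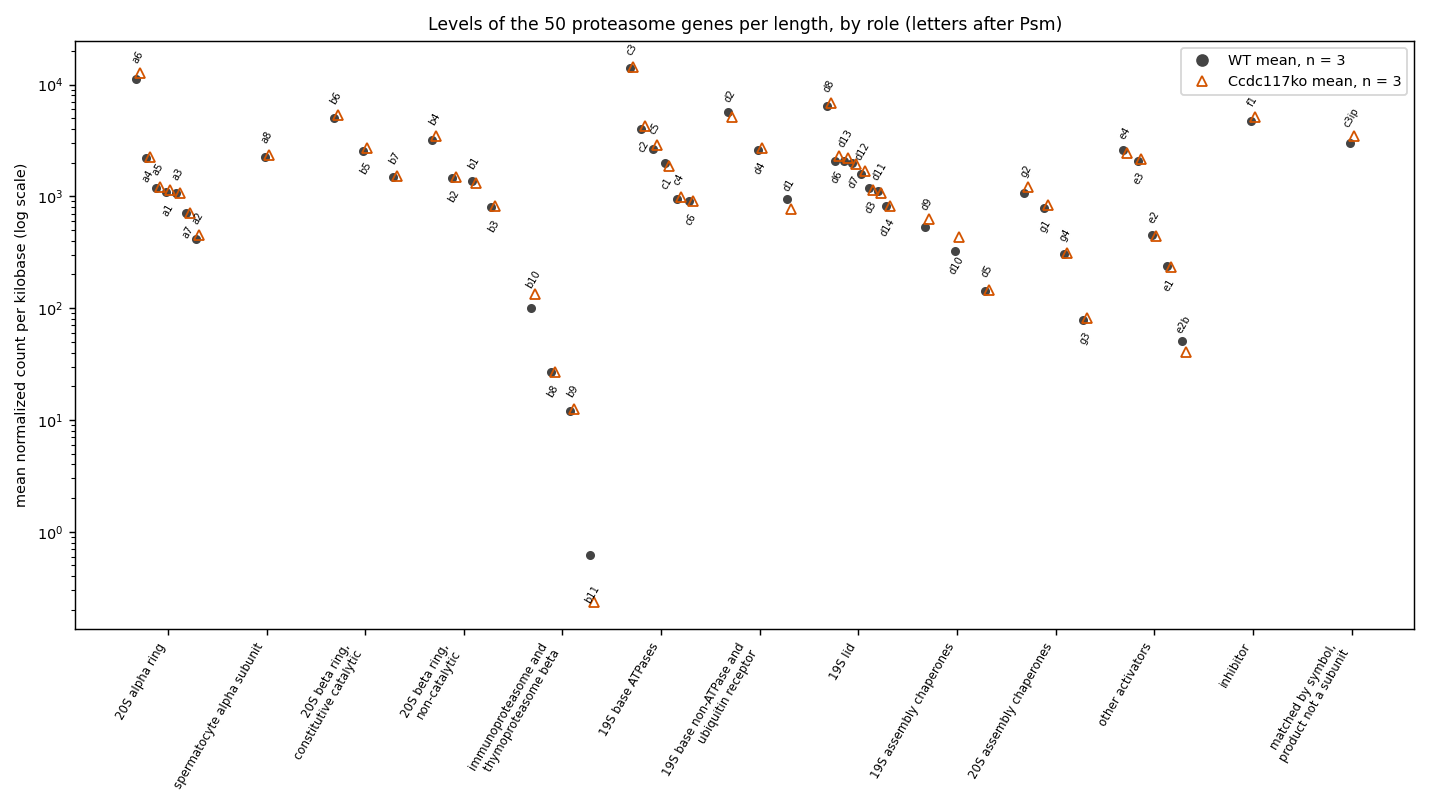
Mean normalized count per kilobase of the longest transcript (log scale) of the 50 genes, grouped by role, for WT (filled circles) and Ccdc117ko (open triangles), n = 3 each; the labels are the symbols without Psm. Psmc3 (14071) and Psma6 (12008) stand at the top, the immunosubunits Psmb8, Psmb9 and Psmb10 lie between 12.3 and 117, and the paired symbols of most genes nearly coincide.

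Most proteasome genes differed little between the genotypes. Of the 50 genes, 49 passed the minimum; Psmb11, the beta subunit of thymus epithelium, did not, with 0 to 3.26 normalized counts per library. Limma called 7 of the 49 at an adjusted p under 0.05 (14.3%), 6 higher and 1 lower, where it called 16.6% of all genes tested, 8.35% higher and 8.25% lower. The 3 values of each genotype did not overlap for 17 of the 49 genes, 14 with Ccdc117ko above and 3 below, against 34.5% of all genes (17.3% above and 17.2% below). Counted in either direction these shares lie near the background. By direction, 12.2% of the 49 genes were called higher and 2.04% lower, and 28.6% had Ccdc117ko above and 6.12% below without overlap. At an unadjusted p under 0.05 were 13 of the 49 genes and 30.7% of all genes. The median log2 difference was 0.04 for the 49 genes and -0.01 for all genes, and the median absolute log2 difference was 0.06 and 0.16. The absolute medians were not matched for level, and genes with few reads have larger errors (SE 0.25 for Psmb9 and 0.04 for Psmc3).

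The 42 genes not called had narrow intervals for the most part. Their log2 differences ran from -0.25 (Psme2b) to 0.18 (Psmg2). For 39 of the 42 the 95% interval of the difference lay within a 1.25-fold change in either direction. The intervals of the other 3, the immunosubunits Psmb8 and Psmb9 and the activator copy Psme2b, reached beyond it; these have few reads. In the authors' deposited table, 9 of the 50 genes had an FDR under 0.05, 7 higher and 2 lower, against 11.5% of all genes in that table. They included 6 of the 7 called by limma (Psmb10 was at 0.0518) and in addition Psmd6 (0.0263), Psmg2 (0.0375) and Psmd2 (0.0110).

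**Figure D2:**
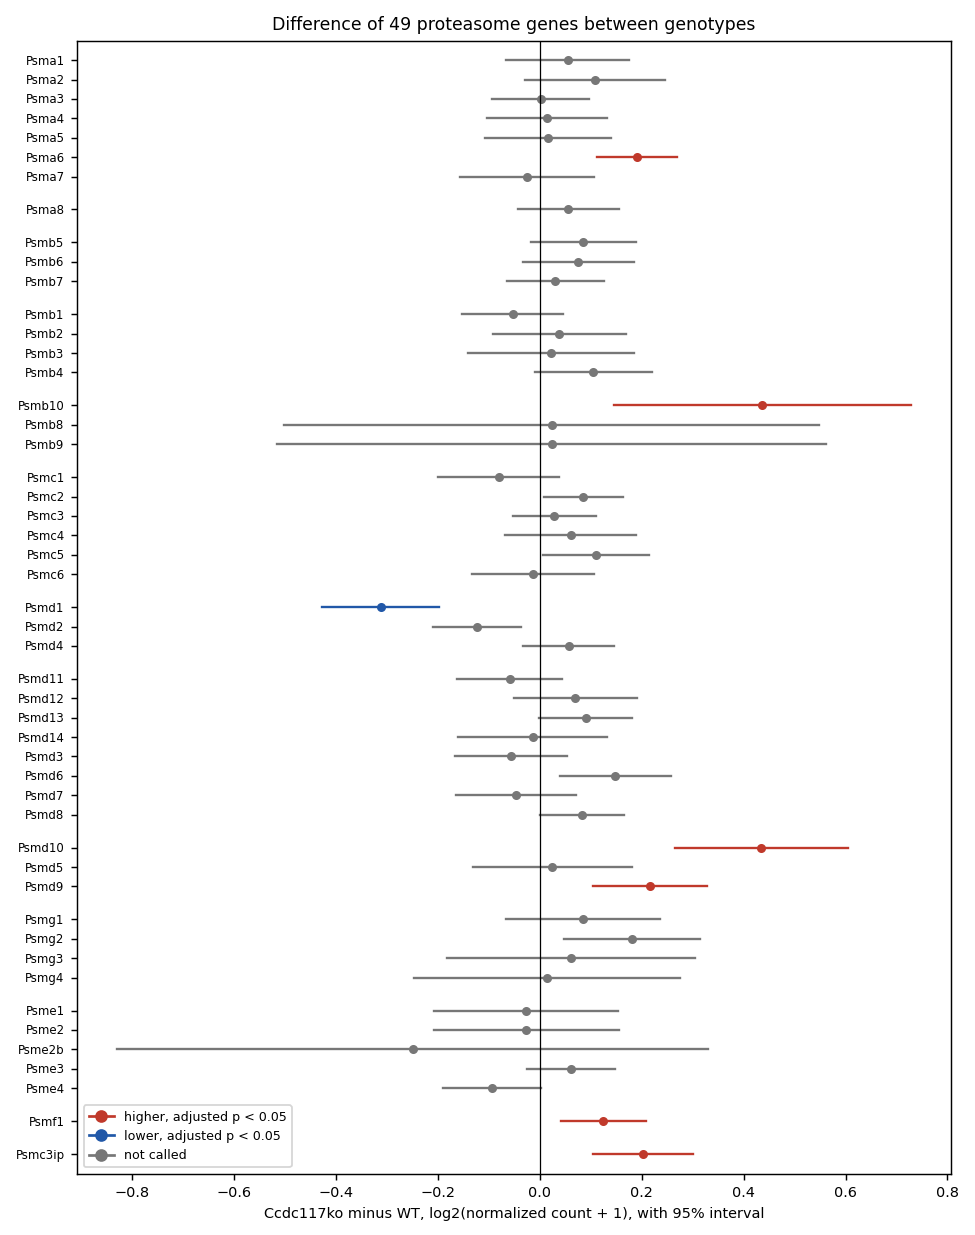
Fitted log2 difference between Ccdc117ko and WT of the 49 tested genes with its 95% interval, in blocks by role, with red for called higher, blue for called lower and grey for not called. The points of most genes lie close to 0, Psmd10 (0.43) and Psmb10 (0.44) lie farthest to the right, and Psmd1 (-0.31) and the uncalled Psme2b (-0.25) farthest to the left.

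In the 20S core, 1 of 14 constitutive subunits rose and none fell. That subunit was Psma6, the alpha1 position of the gate ring (ENSMUSG00000021024, chromosome 12, 55384222 to 55418454 on the plus strand of mm10). It had 11802, 11742 and 11518 normalized counts in WT and 13509, 13190 and 13316 in Ccdc117ko. All Ccdc117ko libraries lay above all WT libraries, with a gap wider than the spread within either group. Group means were 11687 ± 149 and 13338 ± 161 (SD, n = 3 each), a fold of 1.14 (log2 difference 0.19, SE 0.04, limma adjusted p = 0.00469). The call held with each library left out (adjusted p 0.00337 to 0.0250) and was lost after the length and GC correction, where the difference was 0.08 (adjusted p = 0.170).

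The other alpha subunits lay between -0.03 (Psma7) and 0.11 (Psma2), and none of these 6 passed the test. Psma8, the meiotic alpha subunit (ENSMUSG00000036743, chromosome 18, 14706151 to 14762301), had 4416, 4442 and 4157 normalized counts in WT and 4381, 4554 and 4593 in Ccdc117ko. The groups overlapped, with the lowest value in WT replicate 3. Group means were 4338 ± 158 and 4509 ± 113 (SD, n = 3 each). The log2 difference of Psma8 was 0.06 (95% interval -0.04 to 0.15, a fold of 0.971 to 1.11; limma adjusted p = 0.446). Psma7, whose place it takes, had 1100, 1084 and 1069 in WT and 1128, 1018 and 1054 in Ccdc117ko, with overlap.

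The constitutive catalytic subunits did not pass the test. Psmb5, of chymotrypsin-like activity, had 2313, 2290 and 2326 normalized counts in WT and 2498, 2370 and 2487 in Ccdc117ko; the groups did not overlap, but the log2 difference of 0.09 (95% interval -0.02 to 0.19) had a limma adjusted p of 0.251. Psmb6, of caspase-like activity, had 4703, 4904 and 4915 in WT and 5187, 5370 and 4764 in Ccdc117ko (difference 0.08, limma adjusted p = 0.343). Psmb7, of trypsin-like activity, had 4147, 4169 and 4283 in WT and 4411, 4149 and 4314 in Ccdc117ko (difference 0.03, limma adjusted p = 0.683). For the last pair of genes the libraries of the genotypes interleaved. The 4 beta subunits without a catalytic site lay between -0.05 (Psmb1) and 0.10 (Psmb4) on the log2 scale, and none was called.

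Among the inducible catalytic subunits, which replace the constitutive ones in the immunoproteasome, Psmb10 was higher in Ccdc117ko and Psmb8 and Psmb9 did not pass the test. Psmb10 (ENSMUSG00000031897, chromosome 8, 105935735 to 105938444 on the minus strand) had 122, 152 and 119 normalized counts in WT and 191, 161 and 178 in Ccdc117ko. The groups did not overlap, although WT replicate 2 came close to Ccdc117ko replicate 2. Group means were 131 ± 18.2 and 177 ± 15.2 (SD, n = 3 each), a fold of 1.35 (95% interval 1.11 to 1.66; log2 difference 0.44, SE 0.13, limma adjusted p = 0.0431). This call held without WT replicate 2 and was lost without WT replicate 1 (adjusted p = 0.0928), WT replicate 3 (0.146), Ccdc117ko replicate 1 (0.128), 2 (0.0678) or 3 (0.107). Other settings that ended it were a minimum mean of 0.5 (0.0885), no filter (0.0920), a replicate block (0.0637) and the length and GC correction (0.0919). The first 3 of these leave the log2 difference of Psmb10 at 0.44 by construction. They alter its error estimate or the set of genes over which p is adjusted. The difference was 0.37 after the correction and ran from 0.37 to 0.55 with 1 library left out.

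Psmb8 had 60.8, 35.0 and 58.0 normalized counts in WT and 42.0, 58.9 and 52.4 in Ccdc117ko. Psmb9 had 36.9, 29.6 and 38.3 in WT and 27.0, 37.6 and 43.3 in Ccdc117ko. Both overlapped fully, and their intervals were wide, -0.50 to 0.55 and -0.52 to 0.56 on the log2 scale, so a difference as large as that of Psmb10 was not detectable at this depth. Leukocytes are a usual source of immunosubunits, and 13 of 16 leukocyte markers passed the minimum, 0 called higher and 2 lower, with a median log2 difference of -0.16. The summed level of the 16 was 3472 to 4152 normalized counts in WT and 3354 to 3696 in Ccdc117ko; none was at 0 in all libraries, but Cd79a had no read in 4, Cd8a in 2 and Cd3g in 1, and these 3 were below the minimum. Of 17 genes of interferon response and antigen processing, which are induced together with the immunosubunits, none was called higher and 1 lower, with a median of -0.09. That gene was Tapbp, a chaperone of peptide loading, at -0.18 (limma adjusted p = 0.0147). Of those not called, Cd74 (0.34, limma adjusted p = 0.0639) and Nlrc5 (0.31, 0.0866) lay highest. Irf1 (-0.25, 0.244) and Erap1 (-0.25, 0.185) lay lowest. The counts of both lists stand beside 8.35% of all genes tested called higher and 8.25% lower. At those shares a list this short holds few calls, so 0 called higher says little. Whether leukocytes or interferon have a part in the difference of Psmb10 was not tested.

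Of the 17 subunits of the 19S particle that the symbol rule holds, 1 fell and none rose; Sem1, a lid subunit outside the rule, is described with the partners. Psmd1, a scaffold subunit of the base (ENSMUSG00000026229, chromosome 1, 86064387 to 86139151 on the plus strand), had 2882, 2847 and 3153 normalized counts in WT and 2392, 2322 and 2433 in Ccdc117ko. Every Ccdc117ko library lay below every WT library, and WT replicate 3 was the highest. Group means were 2961 ± 167 and 2382 ± 56.1 (SD, n = 3 each), a fold of 0.805 (95% interval 0.744 to 0.872; log2 difference -0.31, SE 0.05, limma adjusted p = 0.00272). Psmd1 was called lower under every single change of setting, with an adjusted p of 0.00215 to 0.0193 when 1 library was left out. In a bulk tissue, fewer cells of a type and less RNA per cell cannot be told apart.

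Psmd2, the other scaffold of the base, had 17350, 16334 and 16985 normalized counts in WT and 15205, 15300 and 16033 in Ccdc117ko. The groups did not overlap, with Ccdc117ko below. The log2 difference of Psmd2 was -0.12 with a limma adjusted p of 0.0517, just past the threshold; it was called with scaling to library totals (0.0396) and by limma-voom (0.0471), and it is named after its values were seen. Psmd4, a ubiquitin receptor of the base, stood at 0.06. The 6 ATPases ran from -0.08 (Psmc1) to 0.11 (Psmc5) and none was called, and Psmc2 alone among them was called after the length and GC correction (adjusted p = 0.0482). That call was absent with coding transcripts (0.276) and with the replicate block added (0.0812). The 8 lid subunits within the symbol rule ran from -0.06 (Psmd11) to 0.15 (Psmd6), none called, with Psmd6 nearest the threshold at an adjusted p of 0.0596 in limma.

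Of the 3 chaperones of the 19S base that the symbol rule holds, 2 rose and Psmd5 did not pass the test. Psmd10 (gankyrin, an ankyrin-repeat protein that binds the ATPase Psmc4; ENSMUSG00000031429, chromosome X, 140948429 to 140956728 on the minus strand) had 483, 474 and 426 normalized counts in WT and 635, 640 and 593 in Ccdc117ko. The lowest Ccdc117ko library lay well above the highest WT library. Group means were 461 ± 30.8 and 622 ± 26.0 (SD, n = 3 each), a fold of 1.35 (95% interval 1.20 to 1.52; log2 difference 0.43, SE 0.08, limma adjusted p = 0.00362). The call of Psmd10 held under every single change of setting, with an adjusted p of 0.00290 to 0.0237 when 1 library was left out. Atg4a, which starts 179 bases away on the opposite strand, differed by -0.27 (limma adjusted p = 0.204).

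Psmd9 (p27, a PDZ-domain chaperone of the ATPase ring; ENSMUSG00000029440, chromosome 5, 123169413 to 123250131 on the plus strand) had 1379, 1425 and 1428 normalized counts in WT and 1625, 1648 and 1643 in Ccdc117ko. The groups were tight and well apart. Group means were 1411 ± 27.3 and 1639 ± 12.2 (SD, n = 3 each), a fold of 1.16 (log2 difference 0.22, SE 0.05, limma adjusted p = 0.0142). This call was lost only without Ccdc117ko replicate 2 (adjusted p = 0.0618). Psmd9 overlaps Hpd on the opposite strand, which had a mean of 13.8 normalized counts; whether counting used the strand is not given in the sources used here. Psmd5, which binds the ATPase Psmc2, had 658, 648 and 590 in WT and 665, 625 and 637 in Ccdc117ko, with overlap and a log2 difference of 0.02 (95% interval -0.13 to 0.18; limma adjusted p = 0.854).

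The 4 chaperones of the 20S core that the symbol rule holds are Psmg1 to Psmg4. They had differences from 0.01 to 0.18 on the log2 scale, all above 0, and none was called. Psmg2, which acts as a dimer with Psmg1, was the highest of these. It had 1484, 1387 and 1282 normalized counts in WT and 1563, 1554 and 1582 in Ccdc117ko, without overlap (log2 difference 0.18, limma adjusted p = 0.0623), and it passed the threshold without WT replicate 1 (0.0179).

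**Figure D3:**
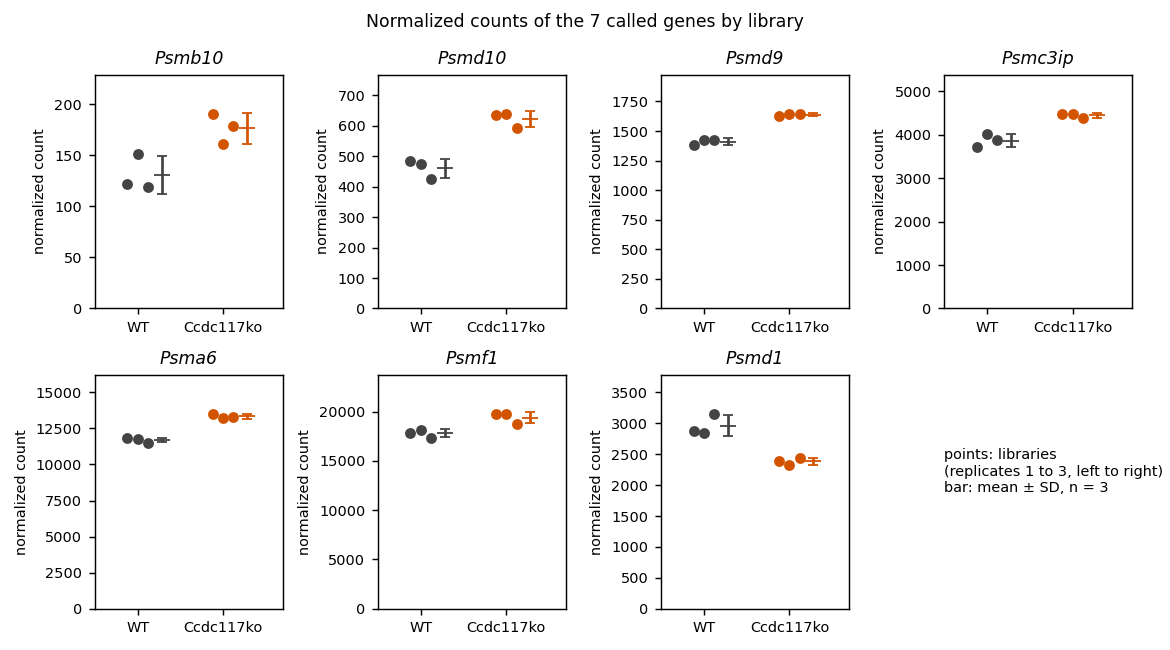
Normalized counts per library (points, replicates 1 to 3 from left to right) of the 7 called genes in WT and Ccdc117ko, with the mean and SD (n = 3) beside them; every axis starts at 0. Psmd1 is lower in all 3 Ccdc117ko libraries (2322 to 2433 against 2847 to 3153), and the other 6 are higher.

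Outside the 19S cap, none of the 5 other activator genes was called, while the inhibitor rose slightly. Psme1 and Psme2, the subunits of the interferon-inducible activator, had 499, 474 and 450 and 445, 414 and 443 normalized counts in WT. In Ccdc117ko, Psme1 had 507, 443 and 448 and Psme2 had 397, 457 and 425. Both overlapped and both had a log2 difference of -0.03 (limma adjusted p = 0.866 and 0.867). Psme2b, a near copy of Psme2, had 27.8 to 56.0 in WT and 30.0 to 36.6 in Ccdc117ko.

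Psme3, the nuclear activator, had 5534, 5588 and 5538 normalized counts in WT and 5781, 5879 and 5716 in Ccdc117ko. These groups did not overlap, but the log2 difference of 0.06 (95% interval -0.03 to 0.15) did not pass the test (limma adjusted p = 0.334). Psme4 had 16176, 16885 and 17250 in WT and 15398, 15119 and 16636 in Ccdc117ko. Here Ccdc117ko replicate 3 lay within the WT range, and the log2 difference was -0.09 (limma adjusted p = 0.172).

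Psmf1, an inhibitor of the 20S core also known as PI31 (ENSMUSG00000032869, chromosome 2, 151715812 to 151744186 on the minus strand), had 17813, 18187 and 17375 normalized counts in WT and 19781, 19726 and 18709 in Ccdc117ko. The groups did not overlap. Group means were 17792 ± 406 and 19406 ± 604 (SD, n = 3 each), a fold of 1.09 (log2 difference 0.13, SE 0.04, limma adjusted p = 0.0431). Leaving out 1 library ended the call for WT replicate 2 (adjusted p = 0.0595), WT replicate 3 (0.150), Ccdc117ko replicate 1 (0.144) and Ccdc117ko replicate 2 (0.169). Other settings that ended it were upper-quartile scaling (0.0815), library totals (0.0580), a minimum mean of 0.5 (0.0788) and no filter (0.0876).

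Psmc3ip, the recombination factor that shares the symbol (ENSMUSG00000019303, chromosome 11, 101091823 to 101095436 on the minus strand), acts in meiotic strand exchange with Dmc1. It had 3708, 4006 and 3878 normalized counts in WT and 4488, 4471 and 4374 in Ccdc117ko, without overlap. Group means were 3864 ± 149 and 4444 ± 61.7 (SD, n = 3 each), a fold of 1.15 (log2 difference 0.20, SE 0.05, limma adjusted p = 0.0104). Without this gene, 6 proteasome genes were called. The call held with each library left out and was lost after the length and GC correction (0.13, adjusted p = 0.0705). Mlx, which overlaps it by 385 bases on the opposite strand, had a mean of 234 normalized counts.

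Ratios within a library compare subunits that can take the same place, free of the scaling between libraries. The 5 ratios were tested by exact two-sided permutation, where 3 against 3 libraries allow no p below 0.1, so that none could pass 0.05. Per kilobase, Psma8 exceeded Psma7 by 3.16 times in WT and 3.34 times in Ccdc117ko. The log2 ratio was 1.66, 1.69 and 1.62 in WT and 1.62, 1.82 and 1.78 in Ccdc117ko, with overlap, and the exact permutation p was 0.4 (0.667 adjusted over the 5 pairs). With coding transcripts the WT ratio was 2.73.

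Psmb10 was low against Psmb7, at a log2 ratio of -3.97, -3.66 and -4.05 in WT and -3.41, -3.57 and -3.48 in Ccdc117ko. The mean WT ratio was 0.0672, and 0.0274 with coding transcripts. All 3 Ccdc117ko values lay above those of WT; the difference was 0.41, with an exact permutation p of 0.1 (0.25 adjusted). The ratios of Psmb8 to Psmb5 and of Psmb9 to Psmb6 overlapped between the genotypes, with differences of -0.06 and -0.05 and exact permutation p-values of 0.8 and 0.9 (0.9 adjusted for both).

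The ratio of the activators Psme4 and Psme3 was lower in every Ccdc117ko library. On the log2 scale it was 0.263, 0.311 and 0.354 in WT and 0.128, 0.0779 and 0.256 in Ccdc117ko. Ccdc117ko replicate 3 nearly reached WT replicate 1. The difference was -0.16 (exact permutation p = 0.1, 0.25 adjusted).

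**Figure D4:**
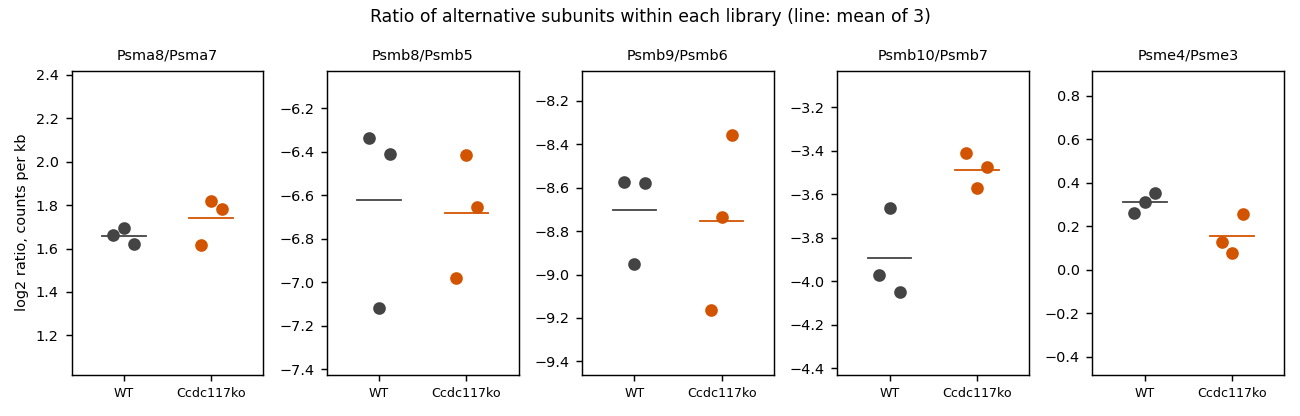
Log2 ratio of normalized counts per kilobase within each library for 5 pairs of alternative subunits or activators, by genotype, with lines at the mean of 3 libraries; each panel has its own axis, of similar span. The genotypes are apart for Psmb10/Psmb7 (-3.90 against -3.49) and Psme4/Psme3 (0.31 against 0.15) and interleave for the other 3 pairs.

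Genes that work with the proteasome but carry other symbols were called in both directions. The counts of the lists below stand beside 8.35% of all genes tested called higher and 8.25% lower. All their values come from the fit without the length and GC correction. Of 13 partners of the particle, 1 was called higher and 4 lower, with a median log2 difference of -0.01. Sem1, a small subunit of the lid, had 1395 ± 13.1 normalized counts in WT and 1587 ± 23.1 in Ccdc117ko (SD, n = 3 each) and rose (difference 0.19, limma adjusted p = 0.0281). Ipo9, an importin, fell by 0.22 (limma adjusted p = 0.0140), Ube3c, a ubiquitin ligase that works on the proteasome, by 0.22 (0.0146), Ubfd1 by 0.21 (0.0359) and Ecpas, which braces the core and the cap, by 0.20 (0.0234). All 5 had no overlap between the genotypes. The core maturation factor Pomp stood at -0.01.

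Of 10 regulators of proteasome gene expression, 1 was called higher and 1 lower, with a median of -0.03. Nfe2l1, the transcription factor that raises proteasome genes when the particle is impaired, had 3235, 3018 and 3155 normalized counts in WT and 2793, 2603 and 2640 in Ccdc117ko. It was lower in all 3 Ccdc117ko libraries, with a log2 difference of -0.23 (limma adjusted p = 0.00963). Ddi1, a relative of the protease that activates Nfe2l1, rose from 6903 ± 299.7 to 7843 ± 245 (SD, n = 3 each; difference 0.18, limma adjusted p = 0.0158).

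Of 15 ubiquitin genes, activating enzymes and shuttles, 2 were called higher and 3 lower, with a median of -0.04. The shuttle Ubqln2 fell by 0.31 (limma adjusted p = 0.00914), the activating enzyme Uba6 by 0.28 (0.0291) and Ubqlnl by 0.14 (0.0239). Of 18 genes of the unfoldase p97 and its cofactors, 1 was called higher and 4 lower, with a median of -0.01. The partners of the p97 cofactor dimer moved in opposite directions. Nploc4 fell from 7458 ± 456 to 5693 ± 337 (SD, n = 3 each; difference -0.39, limma adjusted p = 0.00114), and Ufd1 rose from 4049 ± 121 to 4708 ± 166 (0.22, adjusted p = 0.00803). Ubxn2a fell by 0.41 (limma adjusted p = 0.0318) and Faf2 by 0.18 (0.0420).

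Transcript length and germ cell markers moved with genotype in these libraries. Over 22837 tested genes with a length, the difference had a Spearman correlation of -0.35 with the longest transcript, and over the 49 proteasome genes of -0.20 (-0.13 with the coding transcript); these are correlations across genes, which share their libraries. After the length and GC correction the correlation was -0.01 over all genes and 0.33 over the 49 proteasome genes (0.39 with coding transcripts). In the shortest of 5 length bins the median log2 difference was 0.13 over all genes and 0.06 over its 8 proteasome genes. In the second bin it was 0.06 for both, over 24 proteasome genes, and in the third -0.01 and 0.03, over 12. The fourth held 4 proteasome genes (0.06, against -0.07 for all genes), and the longest held Psme4 alone (-0.09 against -0.13). After the correction for length and GC, limma called 5 of the 49 genes (4 higher, 1 lower), against 12.2% of all genes tested. Psma6 (0.08), Psmb10 (0.37) and Psmc3ip (0.13) were no longer called, of which Psmb10 kept most of its difference. The correction left those of Psmd1, Psmd9, Psmd10 and Psmf1 and added Psmc2, with Psmf1 at 0.21 (limma adjusted p = 0.00556).

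**Figure D5:**
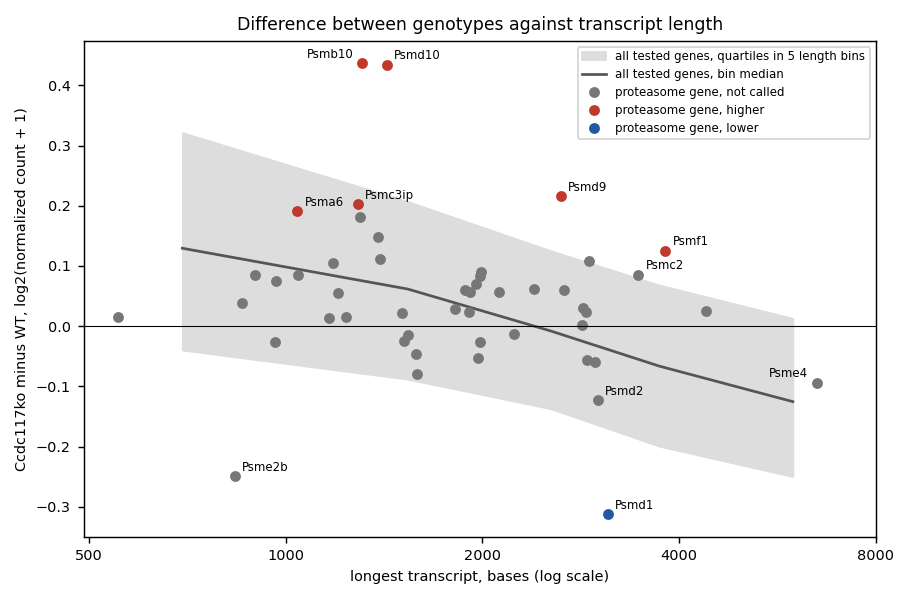
Log2 difference of the 49 tested genes against the length of the longest transcript in bases (log scale), with the median (line) and quartiles (grey band) of all tested genes in 5 length bins; red and blue points are genes called higher and lower. The line falls from 0.13 to -0.13, most proteasome genes lie inside the band, Psmd10, Psmb10, Psmd9 and Psmf1 lie above it, Psmc2 and Psma2 sit at its upper edge, and Psmd1 and Psme2b lie below.

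All 10 round spermatid markers were called higher, with a median log2 difference of 0.39 and a summed level of 55361 to 61349 normalized counts in WT and 70445 to 73958 in Ccdc117ko. Of 9 spermatogonial markers, 4 were called lower and none higher (median -0.30; 9880 to 10687 in WT and 7953 to 8536 in Ccdc117ko). Of 11 Sertoli cell markers, 7 were called lower and none higher (median -0.24; 53130 to 54498 and 47998 to 49951). Most of this sum is Clu, with a mean of 43791 in WT and 40246 in Ccdc117ko. Of 15 spermatocyte markers, 1 was higher and 4 lower (median -0.10), and their summed level, 105155 to 111588 in WT and 107301 to 107745 in Ccdc117ko, overlapped. Hspa2 is the largest part of that sum, with a mean of 46533 in WT and 47781 in Ccdc117ko. Of 10 elongating spermatid markers, 3 were higher and 1 lower (median 0.10), and of 8 Leydig cell markers, 4 were higher and 2 lower (median 0.23). None of these markers was at 0, and the part of these cell type markers in the differences of the proteasome genes was not tested.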

How the data were processed

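Per the labels' protocols, DNase-treated testis RNA went into a stranded mRNA library kit and an Illumina sequencer. STAR, DESeq2 and mm10 are named in the submitters' processing notes; the sources used here give no versions, no counting step and no use of strand. The authors deposited a table of log2 values, read here as log2(normalized count + 1), since undoing the log2 gave whole reads for 100% of values under 500 reads (within 0.01). The authors' deposited p-value and FDR were used only where credited; their test is not stated.

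Limma-trend (limma 3.58.1, R 4.3.3) was fitted to the deposited log2 values with a term for genotype alone, on the 22878 genes whose mean reached 10 normalized counts. P-values are two-sided, adjusted by Benjamini-Hochberg over all genes tested, threshold 0.05. Every fold change comes from log2(normalized count + 1). The minimum of 10 replaced the 0.5 of an earlier processing, in which 2228 genes were called but only 6 to 22 without any 1 of 5 libraries, and 1268 without WT replicate 1. The members and lists were chosen with earlier results of these data known.

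The genes named with values in every library are Psma8, the called members, the constitutive and inducible catalytic subunits, Psme1 to Psme4 and Psmf1; up to 4 called genes are named per pathway list, of which 1 is not reported here. Psma7, Psmd2, Psmd5, Psmg2, Psmb11, Sem1 and Nfe2l1 were given values, and Psmd6, Psmc2, Psme2b, Atg4a, Hpd, Mlx and Pomp named, outside the member rule, after their values were seen. Cd74, Nlrc5, Irf1 and Erap1 were likewise named after their values were seen. Lengths and coordinates came from GENCODE M21 (mm10), which matched 36551 genes. The length and GC correction removed spline fits to log2 length and GC (knots at percentiles 25, 50 and 75) from the deviations of each library. Replicates differed beyond sampling noise (chi-square per degree of freedom 4.72 to 7.58). The fit was tested on simulated data.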

Additional observations from a re-analysis of the deposited data

How the results depend on the processing

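Psmd1 and Psmd10 were called under every single change of setting. Of the 22878 genes 3798 were called; 2228 were called with a minimum mean of 0.5 and 2219 with no filter, where more genes are tested. Leaving out 1 library at a time gave 1714 to 4021. With both changes at once, a minimum of 0.5 and 1 library left out (a setting chosen after seeing the data), 1268 genes were called without WT replicate 1, 12 and 21 without WT replicates 2 and 3, and 22, 6 and 8 without Ccdc117ko replicates 1, 2 and 3. Members called were 4 without WT replicate 1 and 0 otherwise; Psmd1 and Psmd10 then passed only without WT replicate 1 (limma adjusted p 0.0489 and 0.0452) and otherwise had 0.0669 to 0.111 and 0.0697 to 0.111. Unadjusted p-values under 0.05 numbered 5817 to 7349 in these fits. With a length and GC correction and a replicate block together the count was 2371. Members called numbered 7, and 4 to 7 with 1 library left out; 4 with the replicate block and length and GC correction, and 4 with coding transcripts in that correction. Their median log2 difference, 0.04, was 0.0338 to 0.0582 with 1 library left out, 0.00995 after the length and GC correction with or without the block, and -0.0125 with coding transcripts. The cause was not tested.

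The correction for length and GC, with or without the block, turned the sign of Psmb5 (-0.0137), Psmb6 (-0.0214) and Psme4 (0.0139). With coding transcripts it turned Psma8 (-0.0129), Psmb5 (-0.0125), Psmb6 (-0.0311), Psmb7 (-0.0538), Psmb8 (-0.00605), Psmb9 (-0.0325) and Psme4 (0.0189). None of these was called before or after. Leaving out 1 library gave -0.0881 to 0.0109 for Psme1, -0.0780 to 0.0242 for Psme2, -0.23 to 0.16 for Psmb8, -0.12 to 0.21 for Psmb9 and -0.0238 to 0.0548 for Psmd5. The log2 ratio difference of Psmb8 to Psmb5 ran from -0.31 to 0.0872, that of Psmb9 to Psmb6 from -0.25 to 0.15, that of Psma8 to Psma7 from 0.04 to 0.14, that of Psmb10 to Psmb7 from 0.33 to 0.53 and that of Psme4 to Psme3 from -0.21 to -0.12. Psmb8, Psmb9, Psme2b and Psmb11 are limited by depth.

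The genotypes share replicate numbers, which did not pair the libraries: same-numbered deviations had correlations of -0.0033, -0.0039 and 0.0061. With the replicate block 3579 genes and 6 members were called, Psmb10 being lost. A balanced block cannot move a genotype difference, so the median of the members, 0.04, and the pair ratio differences were the same by construction. The exact permutation p with the block was 0.25 for Psmb10/Psmb7 and for Psme4/Psme3, and 0.5 for Psma8/Psma7. With the block no p below 0.25 was possible, so its rise from the value without the block shows no weakening.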

Other observations

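Of the 4 symbols left out by the rule, Psma5-ps had 30 to 52 reads per library. Psmb6-ps had 1 read in WT replicate 2 and none in the other 5 libraries, and Psmb6-ps2 had 5 reads in WT replicate 1 and none in the other 5. Psmb7-ps2 had 1 to 3 reads per library.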
